A study of Mus musculus with 10 samples.

Results

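The positions of cohesin relative to Polycomb-marked chromatin were compared in wildtype AB17 cells. AB17 is a hepatocyte line from an Arid1a fl/fl mouse of strain C57BL/6, immortalized with SV40 large T antigen and carrying activated H-Ras. The cells compared here had received the control adenovirus Ad-GFP and kept Arid1a, while the knockout (KO) cells of the same line had received Ad-Cre, and all cells shared the floxed alleles, the oncogenes and an adenoviral infection. H3K27me3 and Rad21 were profiled by ChIP-seq, with 1 library each from 1 line, so replicate error cannot be given and no p-value was computed. The members were the 100056 Rad21 summits (of 101647) and the 108777 H3K27me3 summits (of 109601) on the 19 autosomes, out of 819400 summits in the 8 lists of the series. A summit is the single base at which a peak is highest, and its −log10 q-value is the strength that the peak caller gave it in its own library. Values given for single Rad21 or Ctcf summits below are such −log10 q-values. H3K27me3 summits no more than 3 kb apart were joined into domains reaching from the first to the last summit, and each Rad21 summit was called inside a domain, within 5 kb outside an edge, or outside both zones. Rad21 summits were divided into weak (−log10 q under 5, 74157 summits), middle (5 to 20, 19262 summits) and strong (20 or more, 6637 summits). The summits nearest to the limits had values of 4.976 and 5.006, and of 19.975 and 20.018. Confidence intervals below are at the 95% level and reflect counting error alone, as summits close to each other are not independent. Read depth is unknown from the lists.

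H3K27me3 is laid down by Polycomb repressive complex 2 and marks silenced developmental genes, often over kilobases. Rad21 is the kleisin subunit that closes the cohesin ring. Cohesin extrudes chromatin loops until it meets Ctcf, a zinc finger protein that halts it when bound in the right orientation, so loop anchors commonly carry a pair of Ctcf motifs that point towards each other. In liver cells, Polycomb is known to keep the genes of other lineages silent.

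The sequences under strong Rad21 summits beside domains are shown first, because the direction of the Ctcf motif in them is used below. The motif searched was the core CCANNAGNNGGC on either strand, in which 8 letters are fixed, within 50 bases of the summit. The first 2 sequences are the named summits inside domains that hold it. The others are the 6 strongest within 5 kb of domains of 2 or more summits with a single match in a window of 41 bases, a set chosen after values were seen. All are the plus strand of GRCm38 (mm10), with the match in capitals.
Inside, nearest start Nkx2-3, chr19:43624083-43624123: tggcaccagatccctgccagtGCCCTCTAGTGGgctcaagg
Inside, nearest start Zbp1, chr2:173186496-173186536: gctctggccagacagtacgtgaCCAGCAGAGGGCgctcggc
Edge, nearest start Rxra, chr2:27765102-27765142: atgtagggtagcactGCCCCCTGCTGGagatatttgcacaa
Edge, in an intron of Cbx7, chr15:79946169-79946209: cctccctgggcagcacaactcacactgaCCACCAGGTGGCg
Edge, nearest start Slc19a1, chr10:77021554-77021594: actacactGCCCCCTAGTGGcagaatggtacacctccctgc
Edge, nearest start Zbtb43, chr2:33487018-33487058: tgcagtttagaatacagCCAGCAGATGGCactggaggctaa
Edge, in an intron of D630003M21Rik, chr2:158204290-158204330: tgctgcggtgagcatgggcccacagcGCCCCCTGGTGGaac
Edge, nearest start Bfsp1, chr2:143867469-143867509: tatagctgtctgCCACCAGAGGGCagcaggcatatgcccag
In 5 of these 6 edge summits the motif pointed away from the nearest domain, taking its direction from the letters CCA to the letters GGC. The exception was the summit near Zbtb43, which had H3K27me3 summits within 5 kb on both sides, 2 on the left and 3 on the right. The strongest named edge summit (−log10 q 126), in an intron of C130026I21Rik and 472 bases from its domain, had its motif off centre, and 101 bases are therefore given.
Edge, nearest start A530032D15Rik, chr1:85114864-85114964: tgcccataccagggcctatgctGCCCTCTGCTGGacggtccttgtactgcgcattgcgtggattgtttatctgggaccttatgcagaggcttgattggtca
Its motif pointed towards the domain.

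To ask where cohesin lay relative to the mark, the share of Rad21 summits in each zone was set beside the share of autosomal bases there. Strong Rad21 summits lay beside H3K27me3 domains more often than weak ones did. Within 5 kb outside an edge lay 18.4% (18.1 to 18.7) of weak, 23.9% (23.3 to 24.5) of middle and 32.6% (31.5 to 33.7; 2162 summits) of strong Rad21 summits, in 11.9% of the bases. Inside domains lay 6.54% (6.37 to 6.72) of weak, 6.84% (6.49 to 7.21) of middle and 8.71% (8.05 to 9.41; 578 summits) of strong summits, in 4.39% of the bases. The share at edges was thus 2.75 times and the share inside 1.98 times that of the bases for strong Rad21. In finer classes the edge share went from 17.7% (17.2 to 18.2) at −log10 q under 2.5 to 33.5% (31.2 to 35.8) at 40 or more. All 19 autosomes had a larger edge share for strong than for weak Rad21, from 1.33 times on chromosome 13 to 2.11 times on chromosome 3. The difference inside domains depended on how domains were drawn: with a joining gap of 1 kb, 0.648% of strong and 0.840% of weak summits lay inside, and with H3K27me3 summits of −log10 q 5 or more alone the shares were 0.316% and 0.317%. The edge share was larger for strong than for weak Rad21 in 12 of 12 settings. Of the 40435 domains, 19270 (47.7%) were a single summit with a span of 1 base. Rad21 near a single summit was therefore almost always called at an edge, and the edge share includes the flanks of single summits. With domains of 3 or more summits alone, the edge share was 14.8% of strong and 7.71% of weak Rad21.

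**Figure D1:**
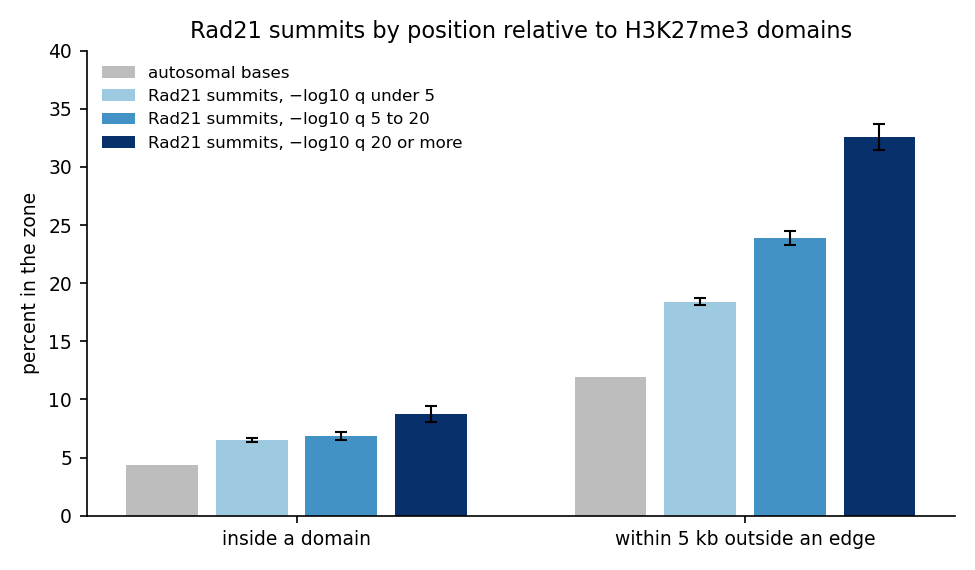
Percent of Rad21 summits on autosomes inside H3K27me3 domains and within 5 kb outside an edge, by −log10 q of the Rad21 summit, beside the percent of autosomal bases in the zone (grey). Bars are percentages, whiskers are 95% Wilson intervals, and the edge share is largest for strong Rad21, at 32.6% against 11.9% of bases. Single H3K27me3 summits count as domains here.

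In summits per Mb, strong Rad21 had a density of 5.49 inside domains, 7.61 at edges and 1.94 outside both zones. The density inside was 2.83 (2.59 to 3.09) times and that at edges 3.92 (3.72 to 4.13) times the density outside. Weak Rad21 had densities of 46.1, 48.0 and 27.7, which were 1.66 (1.61 to 1.71) and 1.73 (1.70 to 1.76) times the outside density. The outside density is that of all autosomal bases outside both zones, not of the surroundings of domains. At 20 to 50 kb from the edges of domains of 2 or more summits, strong Rad21 had 5.13 and weak Rad21 46.0 summits per Mb. Those bases can include other domains. The densities inside domains were thus close to those of the wider surroundings. With a joining gap of 1 kb the density inside over outside was 1.70 (1.23 to 2.29) for strong and 1.69 (1.55 to 1.83) for weak Rad21, and the difference between the classes was gone. The edge zone was denser than the inside by 1.39 (1.26 to 1.52) times for strong and by 1.04 (1.01 to 1.08) times for weak Rad21. Distance to genes left the order in place. Among strong summits more than 2 kb from any annotated transcript start, 32.9% (31.6 to 34.2) lay at edges, and among those nearer to a start 31.7% (29.5 to 34.0), against 17.8% and 19.8% of weak summits. The median GC content within 250 bases of strong Rad21 was 50.6% inside, 49.5% at edges and 48.1% outside, and its part in the shares was not tested.

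The same pattern was measured from the Rad21 side, as the density of H3K27me3 summits at each distance. Around strong Rad21 the mark had a dip at the summit and a shoulder at 1 to 2 kb. There were 35.4 H3K27me3 summits per Mb within 200 bases, 138 at 1 to 2 kb and 86.6 at 20 to 50 kb. Relative to the distant level these were 0.409 (0.330 to 0.500) and 1.59 (1.51 to 1.67). Around weak Rad21 there was no dip, with 93.0 per Mb within 200 bases, 65.9 at 1 to 2 kb and 66.8 at 20 to 50 kb. Middle Rad21 lay between, at 61.8, 90.5 and 69.5 per Mb. The dip and shoulder of strong Rad21 were present both more than 2 kb from a start (40.1, 139 and 88.9 per Mb) and nearer to one (21.3, 133 and 79.9 per Mb). The KO list of H3K27me3, a separate library, had the same shape around wildtype strong Rad21, at 17.0, 113 and 66.7 per Mb. H3K9me3, the mark of constitutive heterochromatin, had no such shape in wildtype cells, with 158, 93.0 and 107 summits per Mb at the same distances from strong Rad21. The KO list of H3K9me3 did have a dip but no shoulder, at 23.4, 31.8 and 62.1 per Mb. The dip was thus not particular to H3K27me3. A peak gives 1 summit, so these densities count summits and do not measure the amount of the mark between them.

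**Figure D2:**
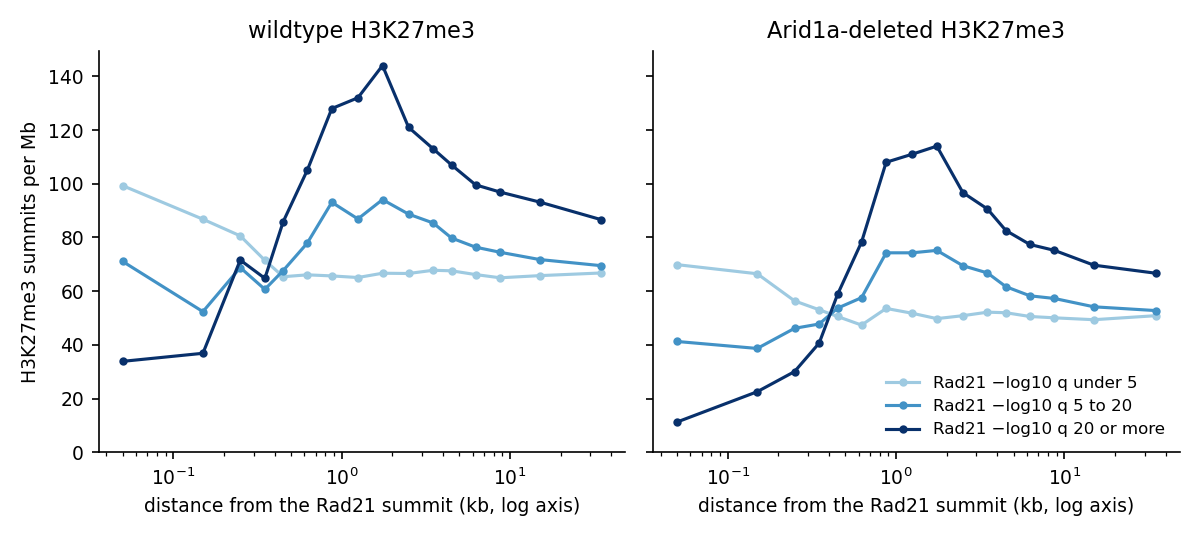
H3K27me3 summits per Mb against distance from Rad21 summits (kb, log axis), for the wildtype and the KO (Arid1a-deleted) H3K27me3 list. Each line is a class of Rad21 −log10 q in wildtype cells, and strong Rad21 has a dip within 200 bases and a shoulder at 1 to 2 kb in both lists.

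Outside the edges of domains of 2 or more summits, strong Rad21 was sparse at the edge itself and most dense about 1 kb away. Its density was 2.46 per Mb (26 summits) in the first 250 bases, 13.4 (284 summits) between 1000 and 1500 bases, 5.91 between 3000 and 4000 bases and 5.13 between 20 and 50 kb. Single H3K27me3 summits had a like shape. Strong Rad21 had 1.45 per Mb in the first 250 bases from them, 11.4 between 1500 and 2000 bases and 4.82 between 20 and 50 kb. The shape was thus not particular to edges of larger domains. An edge here is a summit, so this profile overlaps with that around Rad21 above. Weak Rad21 had its highest density in the first 250 bases, at 70.4 per Mb, and between 43.8 and 56.1 per Mb in every later distance bin. Within domains, strong Rad21 was likewise denser in the wider gaps between neighbouring H3K27me3 summits. It had 3.31 summits per Mb in gaps up to 1000 bases and 7.44 in gaps of 2500 to 3000 bases, whereas weak Rad21 had between 45.3 and 47.1 per Mb in all 5 gap classes. Within 5 kb, strong Rad21 had H3K27me3 on 1 side in 23.2% (22.2 to 24.2), on both sides in 18.1% (17.2 to 19) and on neither in 58.7% (57.5 to 59.9). For weak Rad21 the shares were 13.0%, 12.0% and 75.1%.

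**Figure D3:**
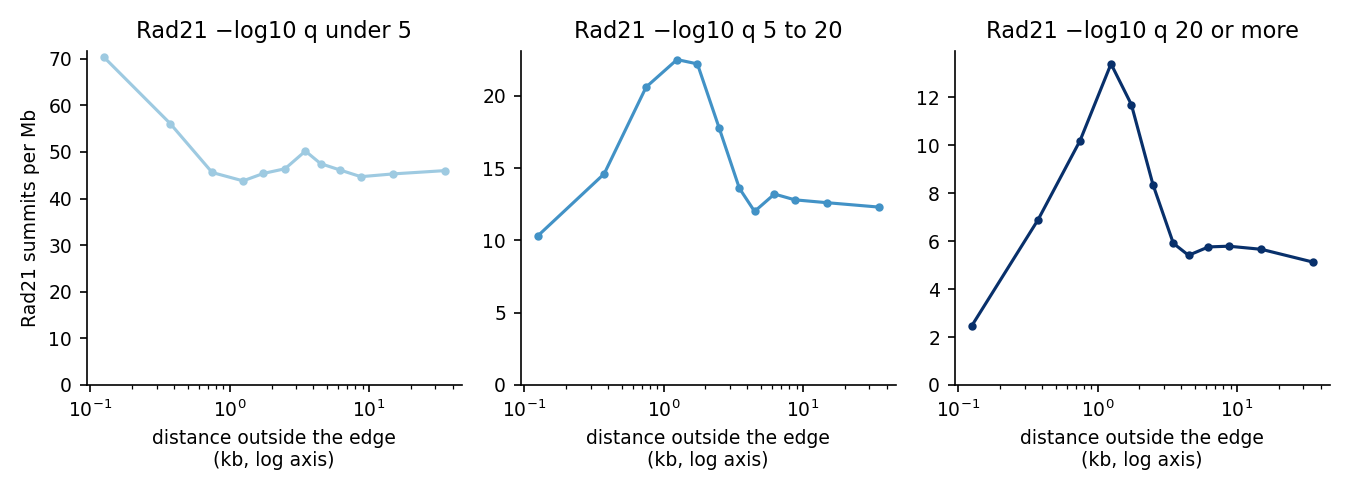
Rad21 summits per Mb against the distance outside the edge of H3K27me3 domains of 2 or more summits (kb, log axis), in 1 panel per Rad21 class with its own vertical axis from 0. Strong Rad21 (right) is lowest at the edge, at 2.46 per Mb, and highest between 1000 and 1500 bases, at 13.4 per Mb, while weak Rad21 (left) is highest at the edge.

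The Ctcf core motif was found within 50 bases of 33.0% (29.3 to 37.0) of strong Rad21 summits inside domains, 29.8% (27.9 to 31.7) at edges and 29.2% (27.8 to 30.7) outside, so its share did not differ between zones beyond the intervals. Among weak Rad21 summits 2.56%, 2.77% and 2.75% held it, and among all positions moved by 2 kb 1.01% did. Its direction, examined after other values were known, was not even at edges. Of 643 strong edge summits with the motif on 1 strand, 417 had it pointing away from the nearest domain, which is 64.9% (61.1 to 68.4). Edge summits with H3K27me3 on both sides, such as that near Zbtb43, were not counted apart. For middle Rad21 the share was 53.6% (50 to 57.1; 750 summits) and for weak Rad21 50.9% (45.9 to 55.9; 377 summits). For strong Rad21 it was 65.6% (60.7 to 70.2) at domains of 2 or more summits, 63.8% (57.9 to 69.3) at single summits, 65.5% (61.4 to 69.5) more than 2 kb from a start and 61.6% (52.4 to 70.1) within 2 kb of one. With domains drawn from the KO list, 371 of 572 pointed away, again 64.9% (60.9 to 68.7), but within 2 kb of a start 53.2% (43.2 to 63.0; 94 summits), an interval that includes an even split.

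With the 1969 strong Rad21 summits aligned so that the motif points ahead, 145 H3K27me3 summits per Mb lay 1 to 5 kb behind and 106 lay 1 to 5 kb ahead, a ratio of 1.38 (1.26 to 1.51). At 5 to 20 kb the ratio was 1.15 (1.09 to 1.20). The KO list gave 121 behind and 89.3 ahead, a ratio of 1.35 (1.22 to 1.49) at 1 to 5 kb. Its ratio at 5 to 20 kb was 1.07 (1.01 to 1.13). At 1 to 5 kb, wildtype H3K9me3 had the lower density behind, with a ratio of 0.869 (0.784 to 0.963), and Brg1 had a ratio of 0.981 (0.853 to 1.13). Around middle Rad21 with the motif, the wildtype H3K27me3 ratio at 1 to 5 kb was 1.08 (0.997 to 1.18). Around weak Rad21 with the motif, the wildtype H3K27me3 ratio was 1.0 (0.893 to 1.13) at 1 to 5 kb and 1.07 (1.01 to 1.14) at 5 to 20 kb, where its interval overlaps that of strong Rad21.

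**Figure D4:**
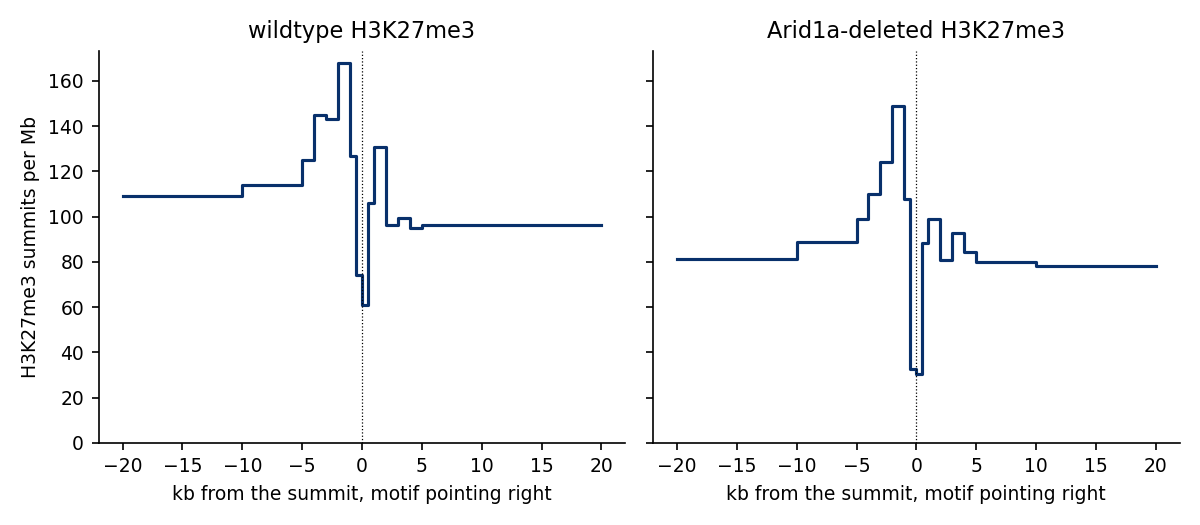
H3K27me3 summits per Mb around the 1969 strong Rad21 summits with the Ctcf core motif on 1 strand, aligned so that the motif points to the right, for the wildtype and the KO list. The horizontal axis is the distance in kb, the step line is the density per distance bin, and the level 1 to 5 kb behind the motif (left) is above that ahead of it, at 145 against 106 per Mb in wildtype.

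Of the factors that the zones did not use, Ctcf accompanied strong Rad21 in every zone while the remodeller subunits Brg1 and Arid1a lay less often beside Rad21 of any class near the mark. A Ctcf summit lay within 1 kb of 96.0% (94.1 to 97.3) of strong Rad21 inside domains, 96.4% (95.5 to 97.1) at edges and 97.4% (96.9 to 97.9) outside. For weak Rad21 the shares were 41.5%, 44.2% and 37.2%. Brg1, the ATPase of the SWI/SNF remodelling complex, lay within 1 kb of 11.6% (9.23 to 14.5) of strong Rad21 inside, 16.8% (15.3 to 18.5) at edges and 29.8% (28.4 to 31.2) outside. Arid1a, the DNA-binding subunit of the same complex, gave 8.65% (6.62 to 11.2), 11.7% (10.4 to 13.1) and 21.3% (20 to 22.6). For weak Rad21 the shares were 5.50%, 11.8% and 25.5% with Brg1 and 5.26%, 10.2% and 20.7% with Arid1a. Ctcf summits of −log10 q 20 or more were themselves placed like strong Rad21, with 7.82% inside and 29.8% at edges. That limit kept 18.1% of Ctcf and 6.63% of Rad21 summits, so the classes are not matched. All Brg1 summits had 1.71% inside and 7.64% at edges, both under the shares of bases. Repeat-masked bases held 4.50% (3.09 to 6.51) of strong Rad21 summits inside domains and 8.31% (7.49 to 9.22) outside.

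Seen from the mark, 40435 domains were formed, of which 19270 (47.7%) were 1 summit and 21165 had 2 or more, with a median span of 3388 bases. Rad21 of any strength lay inside or within 5 kb of 42.0% (41.5 to 42.4) of domains, and strong Rad21 of 8.37% (8.11 to 8.65). The share with strong Rad21 was 6.48% for single summits, 9.12% for domains of 2 to 4, 11.7% for 5 to 9 and 14.7% (12.9 to 16.7) for 10 or more summits, while the windows searched also widen with the span. Counting the edge zone alone, the shares in the last 3 size classes were 7.78%, 7.15% and 7.28%, with overlapping intervals. In all, 88 domains (0.218%) had strong Rad21 beside both edges. The strongest H3K27me3 summits were mostly not in multi-summit domains: of 605 summits of −log10 q 20 or more, 86.6% (83.7 to 89.1) stood alone, at a median of 5716 bases from the next, against 21.9% of summits under 2.5. A broad, strong peak yields 1 summit, so a single summit need not be a narrow domain.

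Of the 10 longest domains, 3 held strong Rad21, beside 1.41% of all domains and 8.09% of those of 10 or more summits. A longer domain also offers more bases for a summit to lie in. The longest, chr9:54296339-54349679, spanned 53341 bases with 34 H3K27me3 summits (33 in KO) over Gldn, which encodes gliomedin of the node of Ranvier, and held 6 Rad21 summits of at most 6.95. The second, chr2:164199578-164245498, covered the starts of Wfdc15a, Wfdc15b and Svs2, the last a seminal vesicle protein, and held 0 Rad21 and 0 Ctcf summits in 45921 bases. The most Rad21 was in chr2:173518359-173560723 at 1700021F07Rik, with 11 summits of up to 35.3 inside and 1 of 36.5 beside it. The others with strong Rad21 inside were the domain over Myrip, a myosin and Rab interacting protein (26.6), and that over F830045P16Rik (22.0). The domains over Ttll11, a tubulin polyglutamylase, Slc24a4, a sodium, potassium and calcium exchanger, and Iqsec1, an Arf exchange factor, had at most 3.34, 2.79 and 2.14 inside. The fourth domain, chr17:26350065-26392541, overlapped no protein-coding gene and held Rad21 of up to 17.6.

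The 10 strongest Rad21 summits inside domains had −log10 q values between 71.2 and 107, and all 10 had a Ctcf summit within 72 bases. The highest, at chr19:43624103, lay 11778 bases downstream of the start of Nkx2-3, a homeobox factor of gut and spleen, in a domain of 3 H3K27me3 summits and 774 bases from the nearest of them. The next, at chr15:97952565 (99.8), was intergenic and 11635 bases upstream of Tmem106c. At Samd5 the summit (97.3) lay 1929 bases upstream of the start, inside a domain of 4 H3K27me3 summits with 0 in the KO list. Rad21 summits were found directly at 2 gene starts, 61 bases upstream of Sorcs2, a neuronal sorting receptor (80.6), and 40 bases upstream of Parm1 (75.8), in domains of 6 and 9 H3K27me3 summits. The summit at chr8:122830628 (71.2) lay 17338 bases upstream of Cdh15, a muscle cadherin, in an intron of Gm20388. Distances to the nearest H3K27me3 summit were between 181 and 1093 bases in the 10. Brg1 was listed within 1 kb at 3 of them, with values of at most 4.37, and Arid1a at 0.

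The 5 strongest beside domains of 5 or more H3K27me3 summits had values between 74.3 and 126. After the summit in C130026I21Rik, the next (94.1) lay 1106 bases from a domain of 9 H3K27me3 summits and 8953 bases upstream of Mmp2, a matrix metalloproteinase. The KO list had 1 summit in that domain. The others lay 4488 bases upstream of Nfam1, an immune receptor (80.1), 26820 bases upstream of Cst3, the protease inhibitor cystatin C (75.7), and in an intron of Prex1, a Rac exchange factor (74.3). All 5 had Ctcf within 124 bases.

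Genes were then placed by their outermost start, and lists were counted over the members found by symbol on the autosomes. Of 20807 autosomal protein-coding genes, 2440 (11.7%) started inside a domain of 2 or more summits, counting 1 kb on each side, and 2044 (9.82%) within 5 kb of one. Any H3K27me3 summit lay within 5 kb of 6713 starts (32.3%). In 868 of the 2440 genes (35.6%) the domain held Rad21, and in 105 it held strong Rad21. Strong Rad21 lay within 10 kb of 2413 starts (11.6%), which was 13.5% (12.2 to 14.9) of starts inside domains, 15.8% (14.2 to 17.4) of those within 5 kb and 10.8% (10.3 to 11.3) of the rest.

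Developmental regulators outside the Hox clusters had H3K27me3 nearby in most cases. Of the homeobox, paired and LIM factors outside Hox clusters, 69 of 83 had an H3K27me3 summit within 5 kb (83.1%), of T-box, Sox, Fox, Gata and bHLH factors 53 of 68 (77.9%) and of developmental signalling genes 44 of 50 (88.0%), beside 32.3% of all genes. Hepatocyte transcription factor genes, some of which are on the second of these lists, had a like share, at 14 of 18 (77.8%). Starts inside domains of 2 or more summits were 6, 12 and 14 of them, or 7.23%, 17.6% and 28.0%, beside 11.7% of all genes. Within 5 kb of such a domain lay a further 19 (22.9%), 8 (11.8%) and 11 (22.0%) starts, beside 9.82% of all genes. Strong Rad21 within 10 kb was listed at 15 (18.1%), 16 (23.5%) and 20 (40%) of them, beside 11.6% of all genes. Of the 37 Hox genes, which set position along the body axis and share their clusters, 17 (45.9%, beside 32.3% of all genes) had H3K27me3 within 5 kb, 4 (10.8%, beside 11.7%) started inside a domain and 21 (56.8%, beside 11.6%) had strong Rad21 within 10 kb.

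At Hoxc8 the domain (chr15:102989654-102996710, 5 H3K27me3 summits) held Rad21 of at most 4.61, and a Rad21 summit of 57.2 with Ctcf of 75.0 lay 1.97 kb outside its left edge. Beyond that summit, H3K27me3 was listed again at 7.47 and 9.15 kb from the domain. Hoxb8 had Rad21 of 20.9 inside a domain of 7 H3K27me3 summits. Hoxa11 had 2.63 inside and 5.69 beside its domain. The domain at Hoxd1, with 18 H3K27me3 summits over 26934 bases (16 in KO), held 0 Rad21 summits, and the nearest strong one was 47049 bases from the start. Among the 4 Hox genes, strong Rad21 was thus inside at 1, beside at 1 and distant at 2.

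Foxf1, a forkhead factor of gut and lung mesenchyme, had the most Rad21 of the named genes. Its domain (chr8:121081916-121093654) held 8 Rad21 summits of 13.1, 2.63, 2.51, 2.14, 6.25, 2.72, 27.8 and 39.1, and the last lay within 1 kb of Ctcf of 58.2. The wildtype list had 8 H3K27me3 summits in that span and the KO list 1, while the KO list had 5 summits between 7.75 and 1.21 kb to its left, where the wildtype list had 0. Eomes, a T-box factor of mesoderm and T cells, had Rad21 of 10.1, Twist2, a mesenchymal bHLH factor, 7.20, and Sox8, a SoxE factor, 6.31 inside domains of 3 or 4 summits without KO summits. Dlx3, a homeobox factor of skin and placenta, had 6.37 inside and 57.4 beside its domain. Prrx1, a limb mesenchyme factor, had 9.66 inside and 5.38 beside, and Lhx6, an interneuron LIM factor, 1.92 and 2.51. Cdx1, an intestinal homeobox factor, had 3.72 inside and 23.6 beside. Of the signalling genes, Inhbb, the activin beta B chain, had 6.68 inside and 22.3 beside its domain, and the Bmp antagonist Chrd 5.22, Bmp3 3.83 and Bmp8a 3.31 inside.

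**Figure D5:**
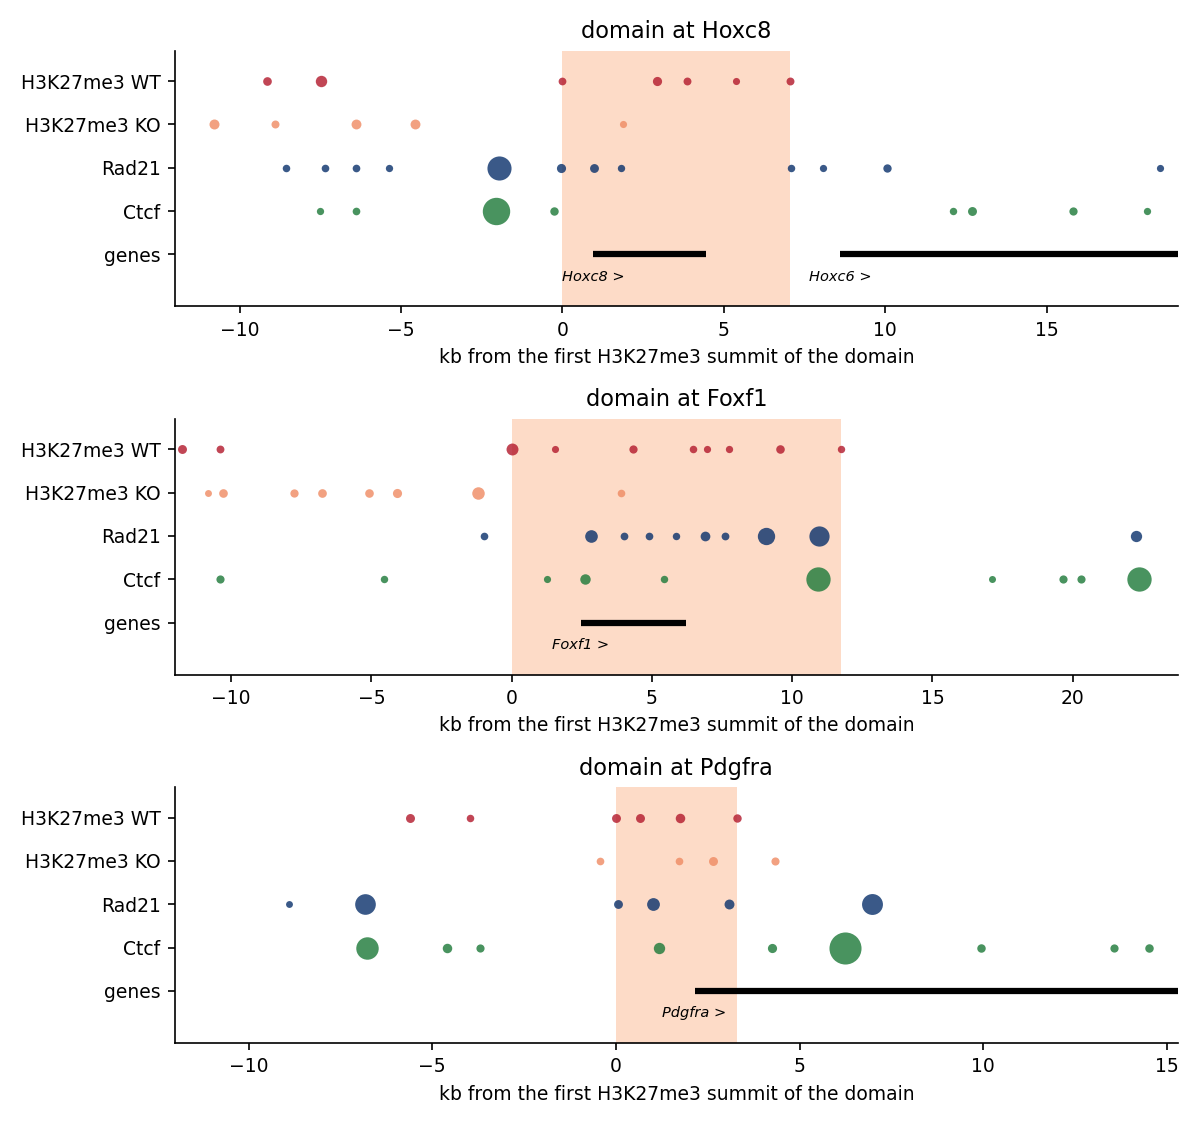
Summits of H3K27me3 (wildtype and KO), Rad21 and Ctcf around the domains at Hoxc8, Foxf1 and Pdgfra, in kb from the first H3K27me3 summit of the domain (shaded), with the area of each point growing with its −log10 q and genes as black bars with their direction. The strongest Rad21 lies outside the shaded domain at Hoxc8 (57.2) and at both sides of Pdgfra (41 and 42.1), and inside it at Foxf1 (39.1). At Pdgfra, the summit of 41 is 6.84 kb left of the domain, with other wildtype H3K27me3 summits between.

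The labelled cell type was not checked by expression, which was not analysed here. H3K27me3 lay within 5 kb of 4 of 6 hepatocyte markers, 2 of 4 endothelial, 3 of 4 mesenchymal, 3 of 4 blood and 2 of 3 biliary markers. The share of all genes was 32.3%. Albumin (Alb) and transthyretin (Ttr) had none, at 15407 and 26552 bases, whereas the hepatocyte master regulator Hnf4a had H3K27me3 at 1174 bases and Foxa2 at 543 bases. Among 24 endothelial, mesenchymal, blood and biliary markers, 14 (58.3%, beside 32.3% of all genes) had the mark within 5 kb and 7 (29.2%, beside 11.7%) started inside a domain. Of these 7, 4 had Rad21 in the domain (57.1%, beside 35.6% of all genes inside domains). Pdgfra, a receptor of mesenchymal cells, had Rad21 of 4.60, 13.5 and 6.68 inside its domain and stronger summits of 41 and 42.1 outside it, 6.84 kb before and 6.97 kb after the first H3K27me3 summit of the domain. The summit of 41 was beyond the 5 kb edge zone of this domain. Wildtype H3K27me3 summits lay between them, at 3.97 and 5.61 kb before the domain. Cdh5, the endothelial cadherin, had 9 H3K27me3 summits (4 in KO) and Rad21 of 7.33 inside and 6.15 beside. The endothelial receptors Kdr and Flt1 had 3.8 and 2.63 inside. Other markers of these cell types lacked the mark. The nearest H3K27me3 summit was 273988 bases from the start of endothelial Pecam1 and 1228009 bases from that of endothelial Tek. For mesenchymal Col1a1 it was 41881 bases away and for the blood marker Ptprc 55732 bases.

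Genes of the hepatocyte's own programme also lay in domains. Of 33 plasma protein and transport genes, 6 started inside a domain and 10 within 5 kb, or 18.2% and 30.3% beside 11.7% and 9.82% of all genes. Of the 6 domains 2 held Rad21 (33.3%, beside 35.6% of all genes inside domains), that of Ambp, a precursor of alpha-1-microglobulin and bikunin (17.6), and that of the clotting factor gene F7 (4.01), while those of Ahsg (fetuin-A) and Fga (fibrinogen alpha chain) held 0. Strong Rad21 was within 10 kb of 1 of the 33 (3.03%, beside 11.6% of all genes). Of 18 hepatocyte transcription factor genes, 2 (11.1%, beside 11.7% of all genes) started inside a domain, a share no higher than that of all genes. Among them was Nr0b2, a nuclear receptor gene of bile acid signalling, in a domain with 0 Rad21 summits. None of 18 housekeeping genes had H3K27me3 within 5 kb, beside 32.3% of all genes.

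Genes of cohesin and Polycomb themselves were among those placed. Of 17 cohesin and Ctcf genes, 4 (23.5%, beside 11.7% of all genes inside domains and 32.3% with any H3K27me3 within 5 kb) started inside domains, namely Rad21l, Stag3 and Smc1b, which encode meiotic cohesin subunits, and Ctcfl, the germline paralogue of Ctcf. The domain at Rad21l spanned 35686 bases with 23 H3K27me3 summits and Rad21 of up to 17.5, that at Ctcfl 25448 bases with 19 summits and Rad21 of 2.30 inside and 41 beside, that at Stag3 held Rad21 of 3.34 and that at Smc1b 0. None of the other 13 had an H3K27me3 summit within 5 kb. Of 31 Polycomb genes 4 (12.9%, beside 11.7% of all genes) started inside domains: Phf19, a PRC2 accessory factor (Rad21 of 5.93), Cbx2, a reader of the mark (1.93), and the PRC1 genes Bmi1 and Phc2, with 0 inside. Of 23 clustered protocadherin genes, neuronal adhesion genes, Pcdhb16 alone (4.35%, beside 11.7% of all genes) started inside one, with Rad21 of 2.14.

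Of the 10 genes that the study examined, 1 started inside a domain, namely Cdh5, beside 11.7% of all genes. A further 1, the ubiquitin ligase gene Rnf125, started within 5 kb of a domain, at 1646 bases, beside 9.82% of all genes. Any H3K27me3 summit lay within 5 kb of 4 of the 10, beside 32.3% of all genes. With 10 genes, no excess over all genes can be read from these counts. The homeobox genes Gsc and Six2 had a single H3K27me3 summit at 325 and 615 bases, and domains of 2 or more summits at 6332 and 8229 bases. The other 6 had no H3K27me3 summit within 5 kb of their start. For Arid1a the nearest was at 5224 bases and belonged to a domain of 3 summits. It was at 22430 bases for Rad21, 40737 for Pmp22, a myelin protein gene, and 119996 for Ctcf. For Smarca4, which encodes Brg1, it was at 253595 bases and for Atg10, an autophagy gene, at 335596. Strong Rad21 was 236 bases from the start of Ctcf and 6814 bases from that of Pmp22. These were the only 2 of the 10 genes with strong Rad21 within 10 kb, beside 11.6% of all genes.

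To ask whether wildtype domains near cohesin were listed again in KO cells, a KO H3K27me3 summit was looked for within 1 kb of each domain. It was found for 30.9% (30.1 to 31.7) of single summits without Rad21 inside or within 5 kb and for 40.7% (38.0 to 43.4) of those with strong Rad21. For domains of 2 to 4 summits the shares were 70.3% (69.3 to 71.3) and 80.1% (77.8 to 82.1). For domains of 5 to 9 summits they were 96.0% and 96.5%, and for 10 or more 99.4% and 99.5%. The KO list is shorter, with 85640 autosomal summits, and its depth is unknown, so genotype and depth cannot be told apart in these shares.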

How the data were processed

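ChIP-seq libraries of AB17 cells were analysed from the deposited peak lists. The authors used Bowtie2 for alignment to mm10, SAMtools to discard reads of low quality, Picard to discard duplicates and MACS2 for peak calling in each library over its input, under default settings. Tool versions are not given in the sources used here. Each deposited list gives 1 summit per peak with a −log10 q-value assigned by the authors' MACS2 run, read as such from the values, of which the lowest was 1.303 (−log10 of 0.05 is 1.30). Because −log10 q grows with depth, its limits do not mean the same in different lists. The limit of 20, also used for Ctcf and H3K27me3, kept 18.1% of Ctcf, 0.556% of wildtype H3K27me3 and 6.63% of Rad21 summits on autosomes. Narrow-peak calling splits a broad mark into several summits.

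H3K27me3 summits up to 3 kb apart were joined on the autosomes. Densities are per non-N base of GRCm38, shares carry Wilson intervals and density ratios exact conditional binomial intervals. Gene starts are from GENCODE. Python 3.11.15 with numpy 2.4.6 and scipy 1.17.1 was used, and the zone assignment was tested on simulated data. Alternatives varied the joining gap, the H3K27me3 threshold, the domain ends, the edge width, positions near starts, chromosomes, windows shared by 6 or more lists, the domain size and the Ctcf distance.

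The named regions were the 10 longest domains, the 10 strongest Rad21 summits inside domains of 2 or more summits and the 5 strongest within 5 kb of domains of 5 or more, and per gene list up to 4 genes with the highest Rad21 inside the domain at their start, plus the 10 genes of the study. The members and lists were chosen with earlier results of these data known. The 2 input libraries were not used here. Lists of H3K9me3, Arid1a, Brg1 and Ctcf served as readouts only. The members of the list of hepatocyte transcription factor genes are not all named here.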

Additional observations from a re-analysis of the deposited data

Results flagged for a closer look

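The X chromosome was outside the comparison. It carried 811 H3K27me3 summits in 444 domains and 1487 Rad21 summits, of which 20 lay inside a domain and 155 within 5 kb of one, together 175. Of its 45 strong Rad21 summits 8 were in these zones. On the autosomes 6.74% of all Rad21 summits lay inside and 20.4% at edges, and 8.71% and 32.6% of strong ones. The counts on X are smaller shares than these. The share of X bases in the zones was not computed, so no excess on X can be read from the counts. The Y chromosome had 13 H3K27me3 summits and 104 Rad21 summits.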

How the results depend on the processing

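No paired analysis was possible because each group was a single library and no test was made. Values for strong Rad21 follow, with alternatives that left the 95% interval of the reported value. The share inside domains (8.71%) was 0.648% with a gap of 1 kb, 21.9% with 10 kb, 0.316% with H3K27me3 of 5 or more, 10.8% with domains extended by 500 bases, 7.80% with domains of 3 or more summits and 6.51% with KO domains, an alternative added after the data were seen. The share at edges (32.6%) was, in the same order, 40.6%, 19.4%, 13.3%, 31.4%, 14.8% and 27.4%, and 20.1% or 40.2% with an edge zone of 2 or 10 kb. The density inside over outside (2.83) was 1.70 with a gap of 1 kb, 3.23 with 10 kb, 2.34 with H3K27me3 of 5 or more, 2.48 with a zone of 2 kb, 3.19 away from starts, 3.14 with X and Y and 2.37 with domains of 3 or more. With a gap of 1 kb the value for weak Rad21 was 1.69. The share of domains with strong Rad21 (8.37%) was 6.78%, 15.0%, 9.50% and 8.88% under the first 4 alternatives, 4.79% and 13.2% with zones of 2 and 10 kb, 6.49% away from starts and 11.2% for domains of 3 or more. The share with Ctcf (96.0%) was 100% with H3K27me3 of 5 or more, and between 95% and 100% throughout. In all, 27 of the alternative values stayed within the interval and 30 moved. The causes were not tested. Widening or narrowing a zone changes its bases by construction. Depth, replicate spread and the extent of each peak cannot be judged from these lists.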

Other observations

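H3K9me3 differed between genotypes in its placement around wildtype Rad21. The wildtype list had 158 summits per Mb within 200 bases of strong Rad21 and 107 at 20 to 50 kb, a ratio of 1.47 (1.33 to 1.62). The KO list had 23.4 and 62.1 per Mb, a ratio of 0.376 (0.288 to 0.482). Around weak Rad21 the ratios were 1.85 and 1.10. Each list is 1 library, and the cause was not tested.

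The 201 strong Rad21 summits without Ctcf within 1 kb lay within 5 kb of a domain edge in 38.8% (32.3 to 45.7), beside 32.4% (31.2 to 33.5) of the 6436 with Ctcf, a difference within the intervals. One of them is the summit in D630003M21Rik whose window holds the Ctcf core motif.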
